A study of Caenorhabditis elegans with 12 samples.

Results

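The genes arl-3, arl-13, rab-28 and tub-1 encode proteins that act in the traffic of membrane proteins and lipid-anchored cargo to and within the cilium. They were chosen by name, with earlier results of these data known. Each matched 1 probe set, so they are 4 of the 17118 genes named on the array and 4 of the 22548 probe sets tested. RNA came from whole Caenorhabditis elegans embryos of the 3-fold stage, when the embryo is folded in the eggshell shortly before hatching, and was hybridised to Affymetrix arrays. The 3 genotypes were a double mutant carrying daf-19(m86) and daf-12(sa204), a mutant carrying daf-12(sa204) alone, and N2 Bristol as the wild type. Both mutant groups thus shared the daf-12 allele, and the daf-19 allele was present in the double mutant group only. The numbers of embryos and of separate cultures behind an array are not given in the sources used here, so p-values measure only the spread between these samples, which may be technical.

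Small GTPases switch between a GTP-bound and a GDP-bound form and so control when a membrane or a cargo is bound. In mammals active ARL3 makes the carriers UNC119 and PDE6D release lipid-anchored proteins inside the cilium. In C. elegans ARL-13 and ARL-3 both act in building the cilia of sensory neurons, RAB-28 is a Rab-like GTPase that gathers at the base of those cilia and depends on the BBSome for this, and TUB-1, the worm tubby protein, acts in sensory cilia and in fat storage. DAF-19 is the RFX transcription factor through which many ciliary genes are switched on, and the nuclear hormone receptor DAF-12 acts in the decision to enter the dauer stage. Cilia in the worm are found on sensory neurons, which are a small part of the embryo. In whole embryos, fewer cells of a type and less RNA per cell cannot be told apart.

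Of the 12 deposited columns, those of double mutant replicates 1 and 2 were identical at every probe set. They were counted as 1 array, called array 1-2 here. The double mutant thus had 3 arrays, and each other genotype had 4. Values are log2 expression after RMA, and the number of arrays limits their precision. Array medians ran from 6.196 to 6.362. Poly-A spike-in controls, RNAs added at labelling, averaged 4.16 to 4.32 on replicates 1 and 2 of all genotypes and 7.16 to 10.21 on replicates 3 and 4. Changes are therefore also given from a fit in which these 2 sets of arrays are a block, called the array-set block. 

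The gene rab-28 fell in the double mutant relative to wild type. On the log2 scale its probe set (188693_at) read 6.79, 7.16 and 7.22 on double mutant arrays 1-2, 3 and 4. The daf-12 mutant arrays 1 to 4 read 7.75, 8.45, 8.27 and 8.68. The wild type arrays 1 to 4 read 8.56, 8.41, 8.80 and 8.66. All double mutant values lay below every value of the other genotypes, while the daf-12 mutant and wild type values overlapped and daf-12 array 1 was the lowest of those 8. The means were 7.05 ± 0.23 (SD, n = 3), 8.29 ± 0.40 (n = 4) and 8.61 ± 0.17 (n = 4).

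Against wild type, the log2 change of rab-28 was -1.55 ± 0.22 (SE), with a 95% confidence interval of -2.04 to -1.06 (limma adjusted p = 0.0191). This is an intensity 2.94-fold lower in the double mutant. It was the 1 member of 4 called in this comparison, where 0.102% of all probe sets were called lower. With the array-set block the adjusted p was 0.00369, where 0.195% of probe sets were called lower, and with a replicate block it was 0.0268, where 0.12% were. The call was lost when double mutant array 1-2, 3 or 4 was left out (adjusted p = 0.0775, 0.127 and 0.118). It was also lost without wild type array 1, 3 or 4 (adjusted p = 0.0648, 0.0842 and 0.0861). The log2 change stayed between -1.64 and -1.42 in the 11 fits that left out 1 array.

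Against the daf-12 mutant, the comparison that isolates daf-19(m86), rab-28 differed by -1.23 ± 0.22 (SE; 95% confidence interval -1.72 to -0.74), an intensity 2.35-fold lower. This did not pass without a block (limma adjusted p = 0.11). None of the 4 members was called in that fit, where 0.0577% of probe sets were called lower and 2.39% had an unadjusted p under 0.05 and a lower value. rab-28 was called with the array-set block (limma adjusted p = 0.0198), where 0.182% of probe sets were called lower, and it was the only member called there. The replicate block gave an adjusted p of 0.1, where 0.0532% were called lower. Without daf-12 array 1, its lowest array, the log2 change was -1.41 (adjusted p = 0.041). Within replicates 1 and 2 the change was -1.31, from 1 double mutant array, and within replicates 3 and 4 it was -1.29. Since the -1.31 rests on that array, the near equality does not show that the sets of arrays agree.

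**Figure D1:**
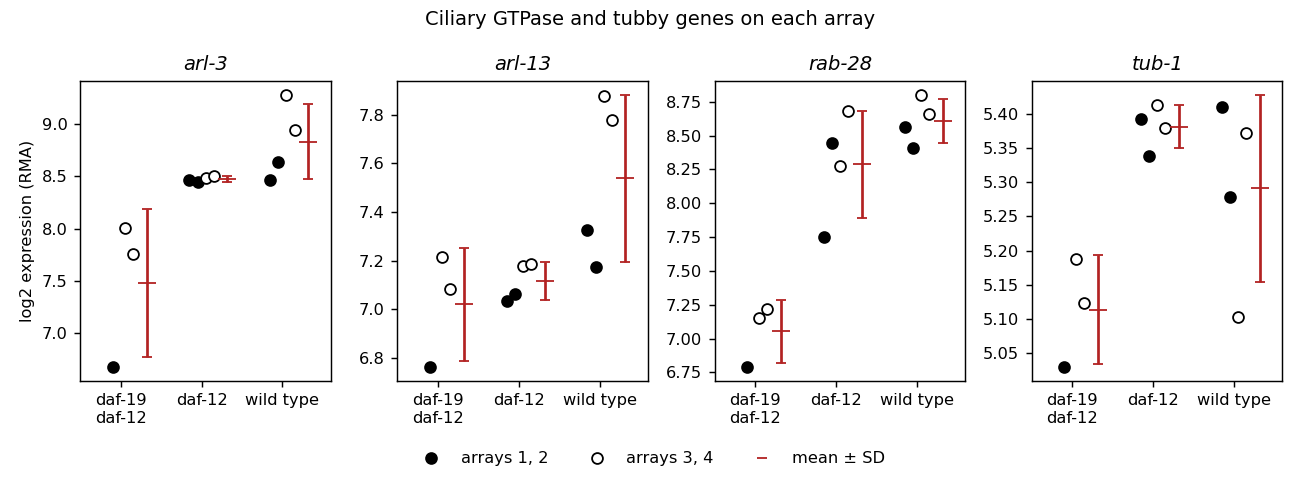
Log2 expression (vertical axis, a scale of its own in each panel) of arl-3, arl-13, rab-28 and tub-1 on each array of the 3 genotypes; filled points are arrays 1 and 2 (1 point where identical), open points arrays 3 and 4, and red bars the mean ± SD. For rab-28 the double mutant arrays lie at 6.79 to 7.22 and the other arrays at 7.75 to 8.80, while for arl-13 the double mutant and daf-12 mutant arrays overlap.

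The gene arl-3 had double mutant values below all others but with a wide spread. Its probe set (194037_at) read 6.68, 8.01 and 7.76 on double mutant arrays 1-2, 3 and 4. The daf-12 mutant arrays read 8.46, 8.44, 8.48 and 8.50, and the wild type arrays 8.46, 8.63, 9.28 and 8.94. Array 1-2 stood apart, more than 1 log2 unit below the other double mutant arrays. The 4 daf-12 mutant values lay close together, and wild type arrays 3 and 4 were the highest of all. The means were 7.48 ± 0.71 (SD, n = 3), 8.47 ± 0.03 (n = 4) and 8.83 ± 0.36 (n = 4) in the same order.

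The change of arl-3 was -0.99 ± 0.30 (SE) against the daf-12 mutant, with a 95% confidence interval of -1.64 to -0.34 (limma adjusted p = 0.685). Against wild type it was -1.35 ± 0.30 (95% confidence interval -1.99 to -0.70; limma adjusted p = 0.27). Neither passed. With the array-set block the difference from wild type was -1.44 ± 0.22 and was called (limma adjusted p = 0.0249), while the replicate block gave an adjusted p of 0.116. The difference from the daf-12 mutant was called in neither block (adjusted p = 0.13 and 0.331). Within replicates 1 and 2, with 1 double mutant array, the double mutant differed from the daf-12 mutant by -1.78, and within replicates 3 and 4 by -0.61. Without array 1-2 the changes were -0.59 against the daf-12 mutant and -0.95 against wild type (adjusted p = 0.349 and 0.212).

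The gene arl-13 showed no difference between the mutants beyond their spread. Its probe set (173106_at) read 6.76, 7.22 and 7.08 on double mutant arrays 1-2, 3 and 4. The daf-12 mutant arrays read 7.04, 7.06, 7.18 and 7.19, and the wild type arrays 7.32, 7.17, 7.88 and 7.78. Double mutant arrays lay both below and above the daf-12 mutant arrays, and wild type arrays 3 and 4 stood above everything else. The means were 7.02 ± 0.23 (SD, n = 3), 7.12 ± 0.08 (n = 4) and 7.54 ± 0.34 (n = 4).

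For arl-13 the double mutant differed from the daf-12 mutant by -0.10 ± 0.20 (SE; limma adjusted p = 0.9998), and the 95% confidence interval ran from -0.54 to 0.35. A fall as large as that of rab-28 in the same comparison lies outside this interval. Leaving out array 1-2 turned the sign, to 0.0335 (limma adjusted p = 0.982). Against wild type the double mutant differed by -0.52 and the daf-12 mutant by -0.42. Their 95% confidence intervals were -0.96 to -0.08 and -0.83 to -0.01, with unadjusted limma p of 0.0257 and 0.0443, and neither passed the adjustment. An unadjusted p under 0.05 with a lower value held for 2.08% of all probe sets in the first of these comparisons and for 1.09% in the second. They share the wild type arrays.

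The gene tub-1 was measured by a dim probe set (192971_s_at), whose value lay below the array's median on 11 of 11 arrays. Its suffix marks a probe set that by the array's naming may also match other transcripts, so its signal is uncertain. It read 5.03, 5.19 and 5.12 on double mutant arrays 1-2, 3 and 4. The daf-12 mutant arrays read 5.39, 5.34, 5.41 and 5.38, and the wild type arrays 5.41, 5.28, 5.10 and 5.37. The double mutant values lay below all daf-12 mutant values, but wild type array 3 fell among them. The means were 5.11 ± 0.08 (SD, n = 3), 5.38 ± 0.03 (n = 4) and 5.29 ± 0.14 (n = 4).

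The change of tub-1 was -0.27 ± 0.14 (SE) against the daf-12 mutant and -0.18 ± 0.14 against wild type. The 95% confidence intervals were -0.58 to 0.04 and -0.49 to 0.13, and limma called neither in any fit. Falls of the size seen for rab-28 lie outside both intervals. The intervals cover the signal of a dim probe set that may match other transcripts, so they cannot exclude such a fall in tub-1 RNA.

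Across the members, groups that did not overlap were found for 3 of 4 against the daf-12 mutant (arl-3, rab-28 and tub-1), where 2.97% of all probe sets had every double mutant array lower. Against wild type they were found for 2 of 4 (arl-3 and rab-28), where the share was 2.66%. For arl-3 and rab-28 every double mutant array lay below every array of both other genotypes, which held for 0.98% of all probe sets. The median log2 change over all probe sets was -0.01 against the daf-12 mutant and -0.03 against wild type. These comparisons share the double mutant arrays. The members were chosen with earlier results of these data known, so their counts are not those of genes drawn blindly from all probe sets.

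A contrast of the double mutant with the mean of both other genotypes, added after the data were seen, used all 11 arrays. In it rab-28 differed by -1.39 ± 0.20 (SE; limma adjusted p = 0.0171), where 0.142% of probe sets were called lower. It was called with the array-set block (adjusted p = 0.00248, background 0.262%) and with a replicate block (adjusted p = 0.023, background 0.146%). For arl-3 the change was -1.17 ± 0.26, called with the array-set block (limma adjusted p = 0.0231) but not without a block or with a replicate block (0.265 and 0.112). For arl-13 and tub-1 it was -0.31 and -0.22, not called in any of the 3 fits.

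The comparison of the daf-12 mutant with wild type asks what daf-12(sa204) alone changes. The members differed by -0.36 ± 0.27 (SE) for arl-3, -0.42 ± 0.19 for arl-13, -0.32 ± 0.21 for rab-28 and 0.09 ± 0.13 for tub-1. Their groups overlapped in all 4 genes and limma called none, without a block, with the array-set block or with a replicate block. Over all probe sets limma called 0 lower (0%) and 3 higher (0.0133%), and at an unadjusted p under 0.05 there were 246 lower and 435 higher.

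The members also varied between the sets of arrays within a genotype. In arl-13 replicates 3 and 4 averaged 0.58 above replicates 1 and 2 in wild type, 0.39 in the double mutant and 0.13 in the daf-12 mutant. In arl-3 these differences were 0.56, 1.21 and 0.04, and in rab-28 they were 0.25, 0.40 and 0.38. In tub-1 they were small, at -0.11, 0.13 and 0.03. Deviations from the group means correlated at r = 0.81 between arl-3 and arl-13 over the 11 arrays, 0.57 between arl-13 and rab-28 and 0.49 between arl-3 and rab-28. For tub-1 with the other members r ran from -0.14 to -0.02. These are descriptions, since the arrays share the shift between the sets.

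Over the 11 arrays, the probe sets whose pattern was most like that of rab-28, among 10781 of single genes brighter than the median, were those of mksr-2 (r = 0.96), bbs-5 (r = 0.95) and tmem-107 (r = 0.95). The genes mksr-2 and tmem-107 belong to the transition zone, the gate at the ciliary base, and bbs-5 encodes a subunit of the BBSome, a coat complex that moves membrane proteins out of and within cilia. In these genes the double mutant was lower than the daf-12 mutant by more than in rab-28, at log2 changes of -2.20, -1.51 and -1.69. For deviations from the group means, which leave out the difference between genotypes, r with rab-28 was 0.66, 0.58 and 0.55. The double mutant means of mksr-2 (4.83) and tmem-107 lay below the lowest array median of 6.196, while that of bbs-5 (6.33) lay above it. The larger falls of mksr-2 and tmem-107 thus rest on dim double mutant values.

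The patterns most like arl-13 were those of B0454.8 (r = 0.95), unc-69, a gene of axon outgrowth (r = 0.93), and sfxn-2, which encodes a sideroflexin (r = 0.93). Their double mutant means differed from the daf-12 mutant by -0.19, -0.04 and -0.07. For arl-3 they were C29H12.6 (r = 0.95), ZK470.6 (r = 0.94) and T05G5.5 (r = 0.92), which differed by -0.28, -0.61 and -0.62. For deviations from the group means r was 0.96, 0.88 and 0.88 with arl-13 and 0.92, 0.80 and 0.86 with arl-3. These deviations pool the 3 genotypes and keep the shift between the sets of arrays. They therefore do not show a likeness within each genotype. For tub-1 the closest were weaker, namely oac-59 (r = 0.85), the hedgehog-related gene wrt-4 (r = 0.84) and the ciliary dynein light intermediate chain gene xbx-1 (r = 0.83). In these the double mutant differed from the daf-12 mutant by -2.31, -0.95 and -1.73, against -0.27 in tub-1, and r of the deviations was 0.57, 0.47 and 0.52. The double mutant means of oac-59 (5.27), xbx-1 (5.99) and ZK470.6 (6.07) also lay below the lowest array median.

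**Figure D2:**
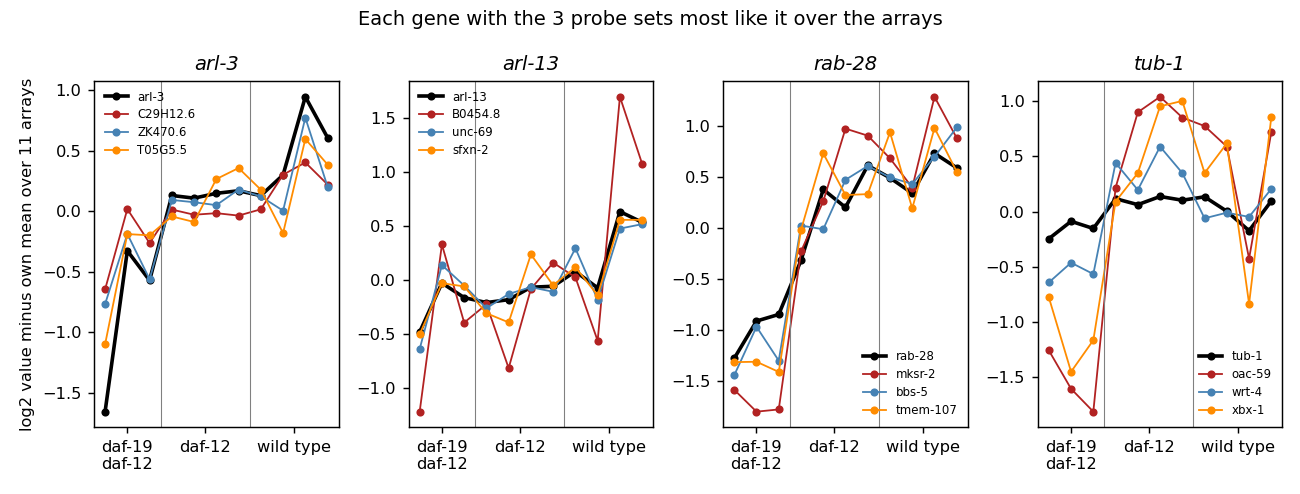
Log2 value of each gene minus its own mean over the 11 arrays (vertical axis), for arl-3, arl-13, rab-28 and tub-1 (black) and the 3 probe sets with the highest Pearson r; arrays are in the order of their numbers within each genotype, parted by grey lines. mksr-2, bbs-5 and tmem-107 follow rab-28 with a deeper fall in the double mutant, and the genes beside arl-13 rise on wild type arrays 3 and 4.

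The partners of ARL-3 and tubby did not pass in any comparison. Changes of list genes are from the fit without a block unless one is named. Of the list of ARL-3 cargo and regulator genes 5 of 6 were measured. The cargo carrier gene unc-119 differed by 0.35 ± 0.44 (SE) against the daf-12 mutant, and pdl-1, the worm counterpart of PDE6D, by -0.14 ± 0.29. The change was 0.09 ± 0.20 in rpi-2, the counterpart of RP2, which in mammals switches ARL3 off. It was 0.16 ± 0.21 in evl-20, the ARL2 counterpart, and -0.20 ± 0.27 in inpp-1, a phosphoinositide phosphatase gene. Of these 5 genes 2 were below 0, with a median of 0.09. For the comparison with wild type the median was -0.11, with 3 below 0. Without a block limma called 0 of them in either, and 0 had an unadjusted p under 0.05. Against wild type 4 of 5 were below 0 with the array-set block and with the replicate block, and limma again called 0. In both of those fits 2, pdl-1 and inpp-1, were lower at an unadjusted p under 0.05, where 4.04% and 3.73% of all probe sets were. Their changes with the array-set block were -0.58 (limma adjusted p = 0.452) and -0.48 (0.677). The tubby-like gene tub-2 differed by 0.04 ± 0.34 at its brighter probe set and 0.27 at the other, and rbg-3, a RabGAP gene that works with tub-1 in fat storage, by 0.03 ± 0.16. Genotype means of rpi-2 (4.13 to 4.32) and of tub-2 at its brighter probe set (4.90 to 5.20) lay below the lowest array median of 6.196. At such dim probe sets the lack of calls cannot show that rpi-2 and tub-2 were unchanged.

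Other small GTPase genes of the same families were not called either. Of the 6 measured ARF and ARL genes 3 were below 0 against the daf-12 mutant, with a median of -0.07. Against wild type 5 of 6 were below 0, with a median of -0.24. Without a block limma called 0 in either, and 1, arl-6, was lower at an unadjusted p under 0.05 in each. Of all probe sets 2.39% and 2.08% were lower at that level. With the replicate block sar-1, a gene of vesicle budding from the endoplasmic reticulum, joined arl-6 against wild type, and 0 were called. In that fit 3.73% of all probe sets were lower at that level. Among them arl-6, whose protein recruits the BBSome to membranes, averaged 4.79 ± 0.23 (SD, n = 3), 5.57 ± 0.19 (n = 4) and 5.60 ± 0.29 (n = 4) in double mutant, daf-12 mutant and wild type. All its double mutant arrays were below those of both other groups, which also held for sar-1, named after its values were seen, and for 0.98% of all probe sets. The changes of arl-6 were -0.78 ± 0.20 (SE; limma adjusted p = 0.478) and -0.82 ± 0.20 (0.448). In sar-1 they were -0.20 and -0.30, and in arf-6 and arl-1 the changes against the daf-12 mutant were 0.28 and -0.25.

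Of the 21 measured Rab genes other than rab-28, 10 were below 0 against the daf-12 mutant, with a median of 0.04. In the comparison with wild type 11 lay below 0, with a median of -0.05. Without a block limma called 0 in either, and 1, rab-11.2, was lower at an unadjusted p under 0.05 in each. Of all probe sets 2.39% and 2.08% were lower at that level. With either block limma called 0. Lower at an unadjusted p under 0.05 were 2 against the daf-12 mutant (rab-11.2 and rab-39) and 3 against wild type (also rab-19). Against wild type 4.04% of all probe sets were lower at that level with the array-set block and 3.73% with the replicate block. In none of the 21 did the double mutant lie wholly below either group. Over all probe sets this held for 2.97% against the daf-12 mutant and 2.66% against wild type. With shares this small, none among 21 genes is unremarkable. The largest differences from the daf-12 mutant were -0.93 ± 0.28 in rab-11.2 (limma adjusted p = 0.71), -0.43 ± 0.26 in rab-39 and 0.38 ± 0.34 in rab-6.2. For rab-8, a Rab gene of ciliary membrane delivery, the brightest probe set differed by 0.35.

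Lists of the ciliary machinery that these GTPases and tubby work with had lower medians. Of the 6 measured BBSome genes all were below 0 against the daf-12 mutant, with a median of -1.45, and 1 was called without a block, bbs-5, where 0.0577% of all probe sets were called lower. Against wild type the median was -1.64 and 3 were called, bbs-5 (-1.89), bbs-8 (-1.72) and osm-12 (-1.60), where the share was 0.102%. With the array-set block 2 were called against the daf-12 mutant (bbs-5 and bbs-8; 0.182% of all probe sets) and 4 against wild type (also bbs-1 and osm-12; 0.195%). With a replicate block bbs-5 alone was called against the daf-12 mutant (0.0532% of all probe sets), and bbs-5 and bbs-8 against wild type (0.12%). Against wild type osm-12 and bbs-1 were not called there (limma adjusted p = 0.055 and 0.112), nor was bbs-8 against the daf-12 mutant (0.0759). Of the 13 measured transition zone genes 12 were below 0 against the daf-12 mutant, with a median of -1.44, and 3 were called without a block, mksr-2, tctn-1 (-2.66) and tmem-107, against the same 0.0577%. With a replicate block tmem-107 was not called there (limma adjusted p = 0.0864). Against wild type the median was -1.47 and 4 were called, the same 3 genes and jbts-14 (-2.05), against 0.102%. With the array-set block 5 were called in each comparison, these 4 and mks-1. IFT complex A, through which tubby proteins enter cilia in mammals, had a median of -1.17 over 6 genes against the daf-12 mutant. Without a block limma called 0 of its genes, and 4 were lower at an unadjusted p under 0.05, where 2.39% of all probe sets were. With the array-set block limma called ift-139 in both comparisons, at -1.77 (adjusted p = 0.0477) for the daf-12 mutant and -1.93 (0.0243) for wild type. With the replicate block limma called it in neither (adjusted p = 0.202 and 0.124). Without a block the change was -1.71 ± 0.33 (SE) in ift-139 (limma adjusted p = 0.15), whose other probe set gave 0.06, -1.39 in ifta-1 and -1.26 in che-11. Against the daf-12 mutant, rab-28 (-1.23) and arl-3 (-0.99) lay closer to these medians than arl-13 (-0.10) and tub-1 (-0.27) did. Many of these list genes had double mutant means below the lowest array median of 6.196, such as osm-12 (4.77), tctn-1 (5.41) and ift-139 (4.38). Others, such as bbs-5 (6.33), lay above it. In bbs-2, bbs-9 and mks-1 the means lay below it in all 3 genotypes. The list medians thus rest partly on dim probe sets.

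**Figure D3:**
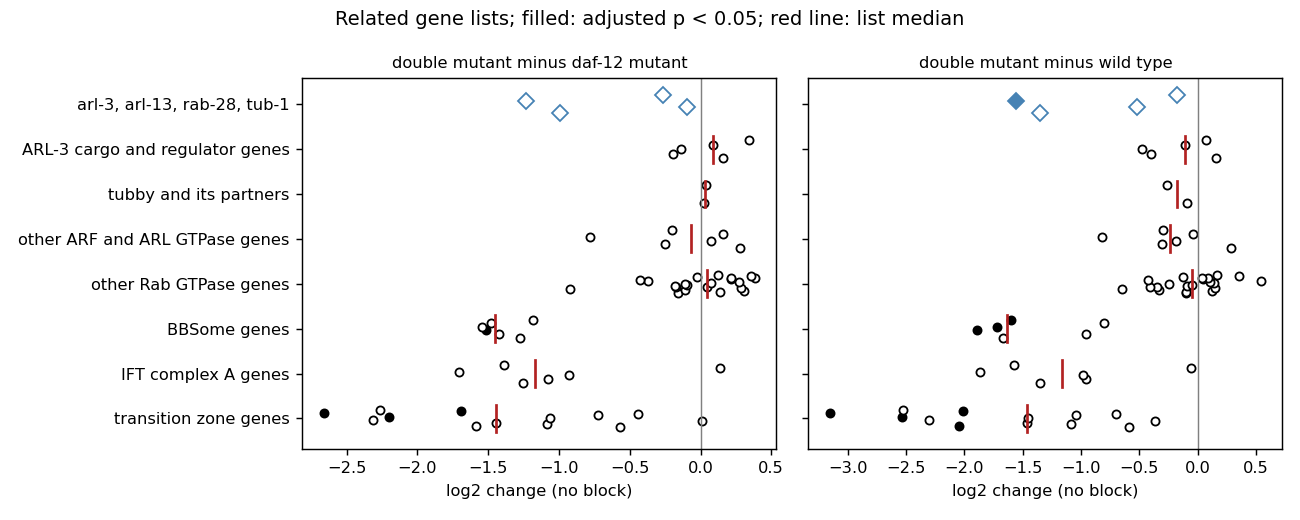
Log2 change without a block (horizontal axis) of the double mutant, set against the daf-12 mutant on the left and wild type on the right; diamonds are arl-3, arl-13, rab-28 and tub-1, circles the genes of related lists at their brightest probe set, red lines list medians, and filled symbols passed an adjusted p of 0.05. The medians of Rab genes are 0.04 on the left and -0.05 on the right, those of ARF and ARL genes -0.07 and -0.24, and those of BBSome genes -1.45 and -1.64.

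Markers of neurons were called in no comparison. Of the 10 neuronal genes 9 were below 0 against the daf-12 mutant, with a median of -0.11. limma called 0, and 0 had an unadjusted p under 0.05. The list includes rab-3, which also counts among the Rab genes. Their summed intensity ran from 6983 to 8617 on double mutant arrays, from 6621 to 11586 on daf-12 arrays and from 7521 to 12427 on wild type arrays. Of 8 channel, cyclase and G protein genes of ciliated sensory neurons 6 were below 0, with a median of -0.37. limma called 0 of the 8, and 1 was higher at an unadjusted p under 0.05. With the array-set block 1 was lower and 1 higher at that level, and with the replicate block 2 and 1. Neither block gave a call. Double mutant means of these genes ran from 3.61 to 5.94, all below the lowest array median of 6.196. At such dim probe sets the lack of calls cannot show that the 8 genes were unchanged. Their summed intensity ran from 298 to 487, 364 to 563 and 328 to 528 in the same order. The part of these genes in the changes of rab-28 and arl-3 was not tested. Markers of other tissues of the whole embryo had medians of -0.29 for body wall muscle, -0.26 for pharynx muscle, 0.05 for intestine and 0.37 for hypodermis against the daf-12 mutant. limma called 0 of these 19 genes, and 1 hypodermis gene had an unadjusted p under 0.05.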

How the data were processed

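Gene expression was measured on Affymetrix arrays. The authors deposited RMA values, which are log2, per the submitters' processing notes; no version is given. All 12 columns were mapped by sample and 0 were left unmapped. The 77 control probe sets were left out. Gene names came from the platform annotation, which gave 20766 probe sets 1 gene, 887 several and 895 none. In R 4.3.3, limma 3.58.1 with lmFit and eBayes was fitted to 11 arrays of 3 genotypes, with two-sided tests adjusted by Benjamini-Hochberg over 22548 probe sets and called at an adjusted p under 0.05. On simulated data changes of 1.5 were called in 55% of probe sets against the daf-12 mutant and 58% against wild type, and changes of 1 in 17% and 9%. The simulated data had independent normal noise, 100 changed probe sets and no shift between the sets of arrays. Rates on the real arrays may therefore differ.

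The members and gene lists were chosen with earlier results of these data known. Named list genes were the called ones and the partners of ARL-3 and tubby, or where a list had no call, the 3 with the largest change against the daf-12 mutant. Genes named by pattern were the 3 with the highest Pearson r over the arrays, and rab-8, rab-19, sar-1, bbs-1 and mks-1 were named after their values were seen. The brightest probe set stood for a gene. The replicate number was used as a block in an alternative fit (array 1-2 as number 1). Deviations from group means correlated between same-numbered arrays at r = 0.22 to 0.29 for the double and daf-12 mutants. For the double mutant and wild type r was 0.33 to 0.49, and for daf-12 mutant and wild type -0.03 to 0.67. Array 1-2 stood for numbers 1 and 2 here, and the deviations keep the shift between the sets of arrays. Differently numbered arrays were not compared, so these r do not show that the numbers mark pairs. Replicate numbers lie within the 2 sets of arrays. Sequences of promoters and proteins were not used here.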

Additional observations from a re-analysis of the deposited data

Results flagged for a closer look

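In 4 groups of 4 arrays, 1 array of a gene named above stood far from the other 3 by Dixon's test. The values on those arrays were 8.74 for inpp-1 on wild type array 4, 8.29 for rab-39 on wild type array 2, 6.32 for jbts-14 on wild type array 3 and 6.40 for oac-59 on wild type array 3. The medians of the other 3 arrays were 8.10, 9.07, 6.77 and 7.54. Chance flags about 1 in 20 groups. Over the members, the related list genes and the genes alike in pattern, 144 groups of 72 probe sets were tested and 12 (8.33%) were set apart, these 4 and 8 of other list genes. For arl-3, arl-13, rab-28 and tub-1 no daf-12 mutant or wild type array was set apart by this test, and the 3 double mutant arrays are too few for it.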

How the results depend on the processing

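The member results kept their direction in every alternative run, except that arl-13 against the daf-12 mutant turned sign without double mutant array 1-2. Over the fits leaving out 1 array, that change ran from -0.19 to 0.0335. The rab-28 change ran from -1.41 to -1.10 against the daf-12 mutant, called in 1 of 11, and from -1.64 to -1.42 against wild type, called in 5 of 11. Calls of rab-28 against the daf-12 mutant were gained with the array-set block (-1.29), within replicates 3 and 4 (-1.29) and with 12 columns as separate arrays (-1.30). The 12-column fit counts the identical columns of array 1-2 as separate arrays. It therefore understates the spread, and its call adds no information. The arl-3 call against wild type was gained with the array-set block (-1.44) and within replicates 3 and 4 (-1.23). Within replicates 1 and 2 alone, where no probe set was called, rab-28 differed from wild type by -1.70 and lost its call. The set alone has 5 arrays, so this fit has few degrees of freedom.

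The replicate block changed no member's call: rab-28 gave -1.56 against wild type and -1.24 against the daf-12 mutant. With it limma called 14 probe sets against the daf-12 mutant, 32 against wild type, and 2 between daf-12 mutant and wild type, where 13, 26 and 3 were called without it. Counts of called probe sets in the same order were 48, 51 and 5 with the array-set block, 0, 0 and 0 within replicates 1 and 2, and 1891, 197 and 13 within replicates 3 and 4. With 12 columns they were 31 and 43 in the first 2 comparisons, and with only the compared groups 8, 16 and 0. Without the dimmest 40% of probe sets, tub-1 among them, 20 were called against the daf-12 mutant. With array 1-2 under number 2 in the replicate block, a choice made after seeing the data, 0 were called between daf-12 mutant and wild type. Leaving out 1 array gave 1 to 74, 2 to 34 and 0 to 2. The cause of these shifts was not tested. The planned search for X-box motifs was not run, since no sequence was used here.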
